A study of Mus musculus with 4 samples.

Results

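The PARP genes of MLO-Y4 cells and *Dtx3l* were described with and without mechanical loading. They are 10 of the 55450 genes in the count table, picked by name: *Parp9*, *Parp10*, *Parp11*, *Parp12*, *Parp14* and *Dtx3l*, called interferon-linked here, *Parp1*, *Parp2* and *Parp3*, called DNA repair genes here, and *Parp8*, which was placed in neither group. The set was selected on the counts of these same libraries, with the lower level of interferon-stimulated genes after loading already known. The loaded-to-unloaded differences of the 10 genes are therefore given as a description without a test, and nothing is supported by them.

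MLO-Y4 is a mouse osteocyte-like line, recorded as wild type (WT) in the sample labels. RNA-seq libraries were made from 2 unloaded and 2 loaded samples of cells grown to 60% confluency. Loaded cells sat on silicone membranes coated with type I collagen and were stretched in all directions for 12 h at 0.5 Hz and 20% strain (Flexcell FX5000), whereas unloaded cells spent 12 h in the incubator of that system on ordinary 6-well plates, so stretch and plate surface cannot be told apart. Nothing in the labels says whether replicates were separate experiments, and p-values measure only the spread between these libraries.

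PARP enzymes take ADP-ribose from NAD+ and attach it to proteins, either as single units or as chains. Chains made by PARP1 and PARP2 at broken DNA recruit repair factors, and PARP3 acts beside them with single units. Another branch of the family is switched on by interferon: PARP9 binds the ubiquitin ligase DTX3L, PARP14 carries macrodomains that bind ADP-ribose, and PARP10, PARP11 and PARP12 attach single units. *Parp14*, *Dtx3l* and *Parp9* lie side by side in the genome.

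Library totals ranged from 28941994 to 32185693 counts, and all 10 genes were among the 16269 genes that passed the filter on low counts. Of 13 osteocyte and osteoblast markers, 6 were at 1 CPM (counts scaled to library size) or more in every library, among them *Pdpn*, *Col1a1* and *Phex*. The osteocyte markers *Sost*, *Mepe*, *Fgf23* and *Dmp1* were at or near 0, and so were *Alpl*, *Bglap* and *Sp7* of the same list. Of 9 macrophage and osteoclast markers *Csf1r* stood at 1579 ± 7.64 CPM (SD, n = 2) in unloaded and 1560 ± 3.08 CPM in loaded cells, while *Ptprc*, *Adgre1*, *Itgam* and *Tyrobp* were at or near 0. The other 8 summed to 10.6 to 12.4 CPM in unloaded and 11.2 to 12.5 CPM in loaded libraries, with *Cd68* at 5.12 ± 0.654 CPM against 2.94 ± 0.177 CPM and *Ctsk* at 4.99 ± 0.198 CPM against 7.64 ± 0.414 CPM, in opposite directions. Neither was called, with edgeR adjusted p = 0.216 and 0.228, and their part in the results was not tested. Lymphocyte markers had 0 counts in every library for 5 of 6 genes, and the sums for the endothelial and epithelial lists were at most 3.37 and 0.792 CPM.

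The promoters were read first, since sequence played no part in the choice of genes. RefSeq windows of 300 bases, from 250 before to 50 after a start (GRCm38.p6), were found for 7 of the 10 genes and not for *Parp9*, *Parp10* and *Parp14*. Interferon response elements (ISRE, GAAANNGAAA, with TTTCNNTTTC on the other strand) were searched, and so was the interferon gamma-activated element GAS (TTCNNNGAA, the same on both strands). An ISRE was found in 3.44% and a GAS in 8.30% of all 32851 windows. Among the 7 genes only *Parp11* held either element. Its ISRE began at base -44, counted from the start, and overlapped a GAS that began at -37. A further *Parp11* window, at a downstream start, held neither. The windows of *Parp12* and *Dtx3l* held neither, nor did those of *Parp1*, *Parp2*, *Parp3* and *Parp8*. Of 7 other family genes, 6 had a window. There *Parp4*, named after its values were seen, held 2 overlapping ISREs that began at bases -150 and -144, *Parp16* held a GAS at -4, and the other 4 held neither. The 160 bases before the start are printed 5′ to 3′ for *Parp11*, for *Parp4* and, as a repair gene without a match, for *Parp1*. Capitals mark ISRE and GAS matches, and none of these bases lies in an annotated exon.

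Parp11 (chr6:127446680-127446839, plus strand): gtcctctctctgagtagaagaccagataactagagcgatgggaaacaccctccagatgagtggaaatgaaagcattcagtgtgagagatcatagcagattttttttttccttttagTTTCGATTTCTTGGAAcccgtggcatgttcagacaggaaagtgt
Parp4 (chr14:56575459-56575618, plus strand): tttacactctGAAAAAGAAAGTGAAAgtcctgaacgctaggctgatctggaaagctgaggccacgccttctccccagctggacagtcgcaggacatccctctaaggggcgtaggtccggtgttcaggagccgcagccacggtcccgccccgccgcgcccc
Parp1 (chr1:180568731-180568890, plus strand): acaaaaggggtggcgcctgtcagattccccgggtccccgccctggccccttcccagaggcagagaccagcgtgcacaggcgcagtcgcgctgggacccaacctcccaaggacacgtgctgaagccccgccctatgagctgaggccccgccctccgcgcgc

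The *Parp11* stretch holds 3 CpG dinucleotides, against 11 in *Parp4* and 13 in *Parp1*. Over the whole window *Parp11* held 5 at this start and 25 at its downstream start, beside a median of 7 over all windows. The other member windows ranged from 16 in *Parp3* to 46 in *Parp12*. A match is a run of letters, and no match says only that these letters were not in that window.

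In loaded cells all 6 interferon-linked genes were lower than in unloaded cells, but by very different amounts. The fitted ratio of loaded to unloaded level, from the edgeR model of all tested genes, was 0.373 for *Parp14*, 0.559 for *Dtx3l* and 0.628 for *Parp11*, while *Parp9*, *Parp10* and *Parp12* lay between 0.757 and 0.803. It was 0.863 to 1.03 for the DNA repair genes and 0.779 for *Parp8*.

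*Parp14* (chr16:35832874-35871544, minus strand), a large mono-ADP-ribosyltransferase with macrodomains, differed most. Its unloaded libraries held 2929 and 2815 counts and its loaded libraries 1123 and 1117. After TMM scaling this was 96.9 ± 5.63 CPM (SD, n = 2) against 36.1 ± 1.89 CPM. Both loaded libraries were far below both unloaded ones, and the replicates of each group lay close together. The log2 fold change, loaded over unloaded (log2FC), was -1.42 with a standard error (SE) of 0.0989, at percentile 1.52 of the log2FC of all tested genes.

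*Dtx3l* (chr16:35926511-35939151, minus strand), the ubiquitin ligase, had 2421 and 2096 counts without loading and 1307 and 1335 counts with it. Its level was 76.3 ± 10.04 CPM in unloaded and 42.7 ± 3.03 CPM in loaded cells, with a log2FC of -0.84 (SE 0.125). The groups did not overlap, although the unloaded replicates differed by 0.27 on the log2 scale, more than for any other of the 10 genes. *Parp9* (chr16:35938470-35972605, plus strand), which encodes its macrodomain partner, had 1962 and 1732 counts in unloaded and 1526 and 1403 counts in loaded libraries. *Parp9* stood at 62.4 ± 7.36 CPM against 47.2 ± 0.156 CPM, with a log2FC of -0.40 (SE 0.113). The loaded replicates nearly coincided, and unloaded replicate 2 lay below unloaded replicate 1 as it did for *Dtx3l*.

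The partners are transcribed away from each other from starts that overlap by 682 bp, where they share 458 exon bases on opposite strands. These bases are 8% of the exon length of *Dtx3l* and 9.40% of that of *Parp9*, and reads there cannot be told apart without strand, which the sources used here do not state for these counts. In TPM, a level scaled for exon length and library size, *Dtx3l* and *Parp9* were near equal in unloaded cells, with a level ratio of 1.05 and 1.03 in the replicates. In loaded cells the ratio was 0.729 and 0.81. The level ratio of *Parp14* to *Parp9* went from 0.782 and 0.851 to 0.385 and 0.417. The 3 neighbours in the genome thus differed in the size of their loaded-to-unloaded ratio.

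*Parp11* (chr6:127446840-127494261, plus strand), a mono-ADP-ribosyltransferase, had the lowest level of the set. Its counts were 769 and 860 in unloaded and 563 and 506 in loaded libraries, or 27.4 ± 1.34 CPM against 17.2 ± 0.333 CPM. The log2 fold change was -0.67 (SE 0.110), and the replicates of both groups were tight beside it. This is the gene with the ISRE and GAS printed above, in the window of its upstream start. The window at its downstream start held neither, and which start these cells use was not tested.

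*Parp12* (chr6:39086410-39118349, minus strand), a zinc-finger mono-ADP-ribosyltransferase, was the most abundant interferon-linked gene per length. It had 2656 and 2945 counts without and 2569 and 2141 counts with loading, which gave 94.3 ± 4.05 CPM against 75.7 ± 5.504 CPM and a log2FC of -0.32 (SE 0.0927). Raw counts of loaded replicate 1 came close to those of unloaded replicate 1, and the groups separated only modestly after scaling. *Parp10* (chr15:76231174-76243441, minus strand), another mono-ADP-ribosyltransferase, had 1910 and 1812 counts in unloaded and 1720 and 1376 counts in loaded libraries. Its level was 62.8 ± 4.22 CPM against 49.7 ± 5.05 CPM, with a log2FC of -0.34 (SE 0.114). *Parp10* shares 205 exon bases, 4.80% of its exon length, with *Plec* on the same strand, and *Plec* was abundant at 1700 CPM in unloaded and 1838 CPM in loaded cells, so the *Parp10* value is uncertain.

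**Figure D1:**
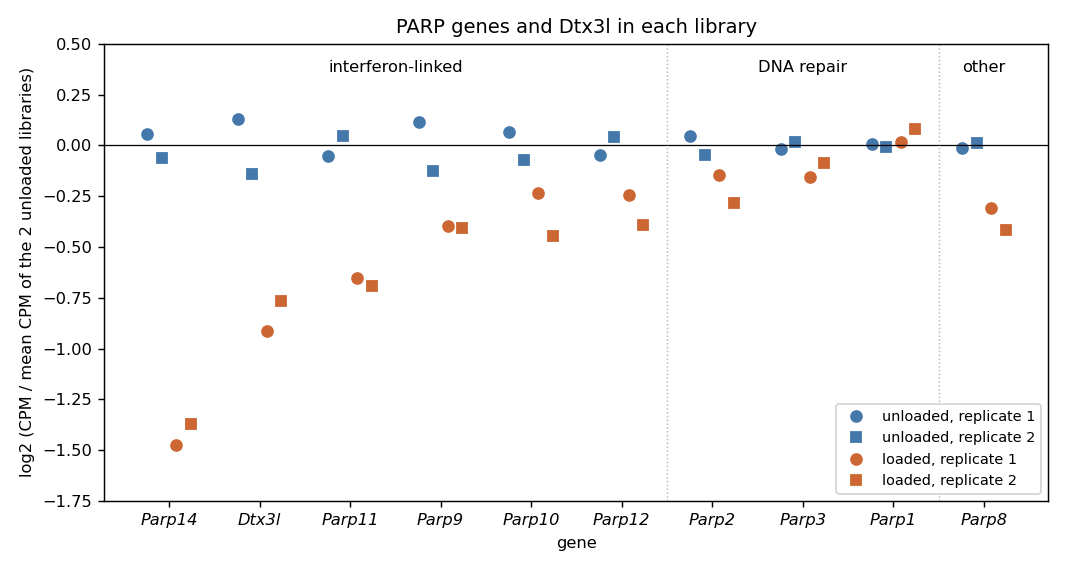
Each point is 1 library, plotted as the log2 ratio of its CPM to the mean CPM of the 2 unloaded libraries, for the 10 genes in 3 groups; circles are replicate 1 and squares replicate 2, blue unloaded and orange loaded. The loaded points of *Parp14* lie far below those of every other gene, *Dtx3l* and *Parp11* follow, and the loaded points of *Parp1* sit at or just above the line.

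The DNA repair genes differed little between the groups. *Parp1* (chr1:180568924-180601254, plus strand), the main sensor of DNA strand breaks, had 5381 and 5542 counts in unloaded and 6007 and 5802 counts in loaded libraries. It stood at 184 ± 1.70 CPM against 190.4 ± 6.01 CPM, with a log2FC of 0.05 (SE 0.0645). This was the only one of the 10 genes that was higher in loaded cells, and the difference was about the size of the loaded SD. *Parp2* (chr14:50807841-50821301, plus strand), the related strand-break enzyme, had 1492 and 1456 counts without and 1449 and 1219 counts with loading, or 49.7 ± 2.35 CPM against 42.9 ± 2.83 CPM. Its log2 fold change was -0.21 (SE 0.102). *Parp3* (chr9:106470322-106476949, minus strand), which acts at double-strand breaks, had 1672 and 1790 counts in unloaded and 1689 and 1640 counts in loaded libraries. *Parp3* stood at 58.3 ± 1.06 CPM against 53.7 ± 1.895 CPM, with a log2FC of -0.12 (SE 0.0921).

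*Parp8* (chr13:116854820-117025537, minus strand), a mono-ADP-ribosyltransferase of little known role, had 1344 and 1429 counts in unloaded and 1218 and 1043 counts in loaded libraries. It was at 46.7 ± 0.620 CPM against 36.4 ± 1.95 CPM, with a log2FC of -0.36 (SE 0.0966). *Parp8* is in neither group by name, yet its log2 fold change lay between those of *Parp9* and *Parp10*.

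Every loaded library can be set against every unloaded library, which gives 4 log2 ratios per gene. They ran from -1.53 to -1.31 for *Parp14*, from -1.04 to -0.63 for *Dtx3l*, and from -0.74 to -0.60 for *Parp11*. For *Parp9* they ran from -0.52 to -0.27, for *Parp10* from -0.51 to -0.17 and for *Parp12* from -0.44 to -0.20. The ratios of *Parp8* ran from -0.43 to -0.29, inside the ranges of *Parp9*, *Parp10* and *Parp12*. *Parp2* ran from -0.33 to -0.10 and reached into those ranges too, whereas *Parp3*, from -0.17 to -0.07, and *Parp1*, from 0.01 to 0.09, stayed almost wholly or wholly above them. *Parp14* did not overlap with any other gene of the set.

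The contrast of the 2 groups was taken per library, as the mean centred log2 CPM of the 6 interferon-linked genes minus that of the 3 DNA repair genes. It was 0.32 and 0.25 without loading and -0.27 and -0.30 with it. The change from unloaded to loaded was -0.57, made up of -0.66 for the interferon-linked and -0.09 for the repair genes, and the 4 library pairs ranged from -0.62 to -0.52. Replicate 2 minus replicate 1 gave -0.07 in the unloaded group and -0.03 in the loaded group. With *Parp14* left out the change was -0.42, with *Dtx3l* left out too it was -0.34, and with *Parp11* also left out, so that *Parp9*, *Parp10* and *Parp12* stood alone, it was -0.26. These values without single genes were chosen after the data were seen.

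A gene was called in the fit of all genes at an edgeR adjusted p under 0.01. *Parp14* was the 1 member called lower, beside 0.0861% of all tested genes. It was also the only one at an adjusted p under 0.05, beside 0.565% of all tested genes called lower. The DESeq2 test called *Parp14* and *Dtx3l* lower at 0.01, beside 1.55% of the genes it tested. The 2 groups of libraries did not overlap, with loaded below unloaded, for 9 of the 10 genes, beside 24.5% of all tested genes. Nothing is read from these counts, because the set was picked with this comparison in view. At 0.01 the edgeR call of *Parp14* was lost in several other fits, among them those without a filter on low counts and without loaded replicate 1 or loaded replicate 2, where 0 genes were called at all.

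**Figure D2:**
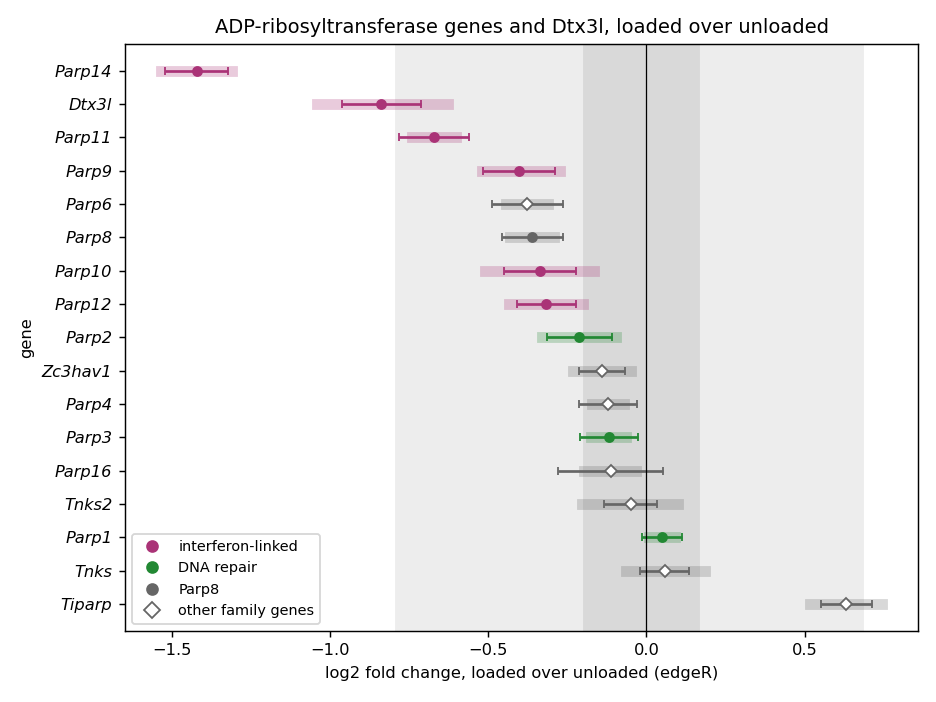
Points are log2 fold changes, loaded over unloaded, with standard error bars for the 10 genes (filled) and 7 other family genes (open); pale bars span the 4 library pairs, and grey bands hold the middle 50% and 90% of all tested genes. *Parp14* and *Dtx3l* are the points below the 90% band, which starts at -0.79, and *Tiparp* at 0.63 is the highest of the 17 genes.

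Per length, *Parp1* led in unloaded cells at 119 ± 3.29 TPM and *Parp12* followed at 80.6 ± 1.97 TPM. *Parp3* at 53.8 ± 0.0188 TPM, *Parp10* at 50.2 ± 4.30 TPM, *Parp2* at 46.8 ± 3.08 TPM, *Dtx3l* at 45.5 ± 6.83 TPM and *Parp9* at 43.7 ± 5.96 TPM came next, and neighbours in this stretch did not differ beyond their spread. *Parp14* stood at 35.6 ± 2.72 TPM, *Parp8* at 18.0 ± 0.0935 TPM and *Parp11* at 13.3 ± 0.406 TPM. The ends of the order were thus well apart, and its middle was not.

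In loaded cells *Parp1*, at 121 ± 2.33 TPM, and *Parp12*, at 63.8 ± 5.42 TPM, kept ranks 1 and 2. *Parp14* went from rank 8 to rank 9 at 13.1 ± 0.523 TPM, level with *Parp8* at 13.8 ± 0.906 TPM within their spread. *Dtx3l*, at 25.04 ± 1.47 TPM, went below *Parp9*, at 32.6 ± 0.508 TPM. *Parp11* stayed last at 8.24 ± 0.261 TPM.

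**Figure D3:**
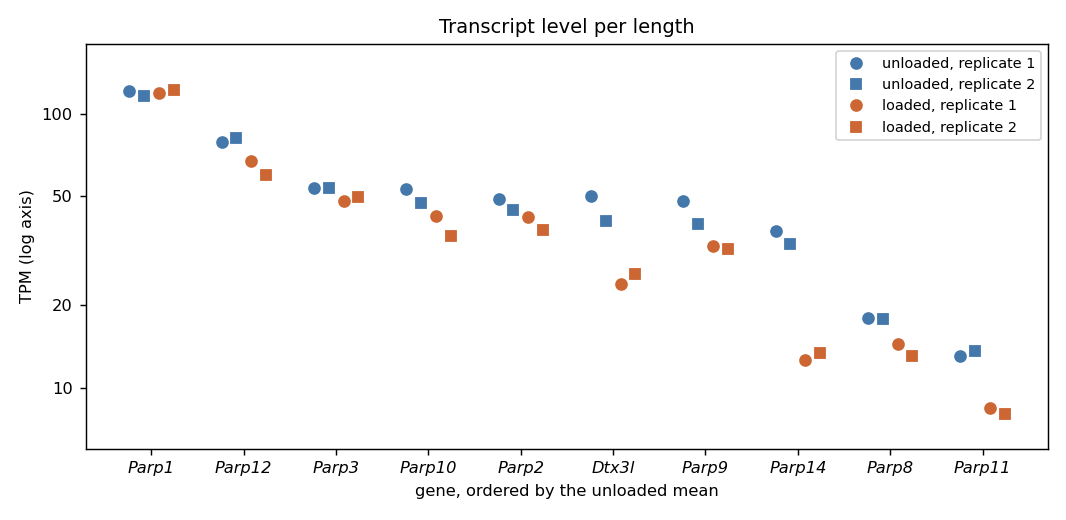
The level of each gene in each library is shown in TPM on a log axis, ordered by the unloaded mean, with circles for replicate 1 and squares for replicate 2. *Parp1* stays near 120 TPM in all 4 libraries, while *Parp14* goes from 33.6 and 37.5 TPM to 12.7 and 13.4 TPM.

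The 16 PARP family genes measured, which are the 9 members other than *Dtx3l* and 7 more, summed to 924 and 857 TPM without loading. With loading they summed to 830.4 and 833 TPM. The 5 interferon-linked PARP genes held 25.1% ± 0.140 (SD, n = 2) of that level without loading and 18.8% ± 1.26 with it. *Zc3hav1*, inducible by interferon but not placed in that group, counted only in the sum, at 118 ± 9.09 TPM without and 105 ± 4.64 TPM with loading. The DNA repair enzymes held 24.2% and 25.1% without and 25.2% and 25.2% with loading. *Parp14* alone went from 4.06% and 3.92% to 1.53% and 1.61%. In the same sum *Tiparp* went from 9.77% and 9.52% to 15.3% and 16.2%.

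The replicates of each group were also set against each other, a measure that the choice of genes did not use. Replicate 2 over replicate 1 of the unloaded group gave log2 ratios of -0.27 for *Dtx3l* and -0.24 for *Parp9*, -0.14 for *Parp10* and -0.12 for *Parp14*, and 0.10 for *Parp11* and 0.09 for *Parp12*. Interferon-linked genes thus went in both directions between the unloaded replicates. In the loaded group they ranged from -0.21 for *Parp10* to 0.15 for *Dtx3l*. The repair genes stayed between -0.13 and 0.07 in both groups.

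The mean profile of the 6 interferon-linked genes over the 4 libraries was compared with 9674 other genes of at least 10 CPM. By Euclidean distance of centred log2 CPM the nearest were *Id2* (0.0406), *Ndst3* (0.0421), *9130208D14Rik* (0.0683), *Hinfp* (0.0701) and *Cp* (0.0751). Among the members, *Parp11* at 0.139 and *Dtx3l* at 0.242 lay nearest to the mean profile and *Parp14* at 0.764 lay farthest of the 6, farther than *Parp1* at 0.716. With 4 libraries such a distance mainly restates the size of the loaded-to-unloaded difference.

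The neighbours of the members were tested in the fit of all genes. Of 32 neighbours, the 2 nearest tested genes on each side of each member that are no members themselves, 0 were called at an edgeR adjusted p under 0.01 or 0.05, 2 had an unadjusted p under 0.05, beside 14.3% of all tested genes at that unadjusted p, and DESeq2 called 0. Their log2 fold changes ranged from -0.76 to 1.36 with a median of 0.02, and 16 were negative. Both ends of that range came from genes of low level. *Cracr2a*, the lowest, stood at 1.86 CPM in unloaded and 1.10 CPM in loaded cells. *Gm10734*, the highest, stood at 0.273 CPM against 0.705 CPM and lay 1763833 bp from *Parp8*. At the shared locus *Hspbap1*, on the far side of *Parp14*, had a log2FC of 0.33 (SE 0.189, edgeR adjusted p = 0.491), and *Kpna1*, beyond *Parp9*, had -0.58 (SE 0.402, edgeR adjusted p = 0.573). *Rrp9*, which shares 20 exon bases with *Parp3* on the opposite strand, had a log2FC of 0.46 (SE 0.0984, edgeR adjusted p = 0.125).

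**Figure D4:**
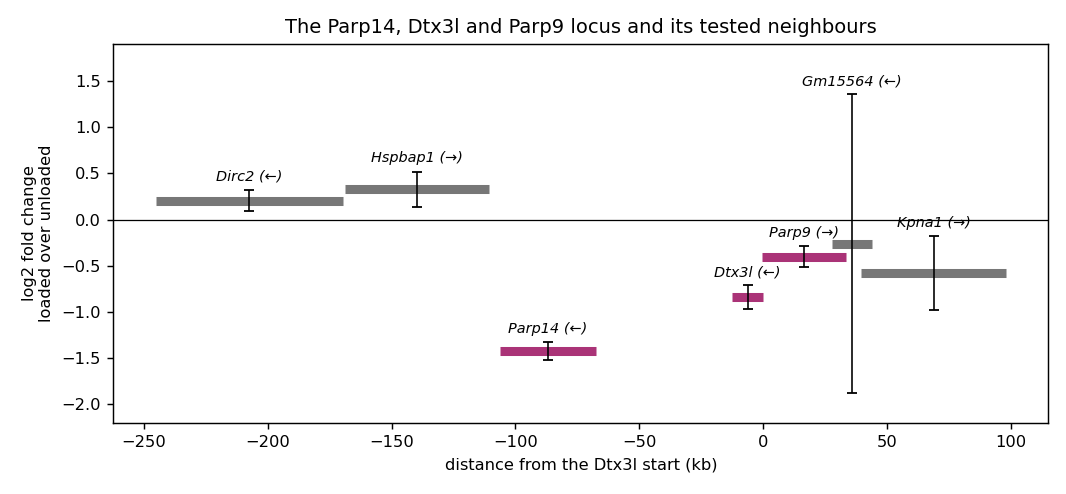
Each bar is a tested gene at the *Parp14*, *Dtx3l* and *Parp9* locus, placed by its distance in kb from the *Dtx3l* start and, in height, by its log2 fold change (loaded over unloaded) with a standard error bar; members are purple, other genes grey, and arrows give the strand. The members stand at -1.42, -0.84 and -0.40, and the error bars of *Kpna1* and *Gm15564* are wider than theirs.

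The rest of the family was counted from a list of 7 genes: *Parp4*, *Parp6*, *Parp16*, *Tiparp*, *Tnks*, *Tnks2* and *Zc3hav1*. None was called at an edgeR adjusted p under 0.01, 2 had an unadjusted p under 0.05 (14.3% of all tested genes), and DESeq2 called 1 higher (1.36% of the genes it tested). At an adjusted p under 0.05 *Tiparp*, an aryl hydrocarbon receptor target that encodes a mono-ADP-ribosyltransferase, rose, beside 0.338% of all tested genes called higher. *Tiparp* had 3305 and 3198 counts in unloaded and 5255 and 5275 counts in loaded libraries, with a log2FC of 0.63 (SE 0.0802, edgeR adjusted p = 0.0369). *Zc3hav1*, which encodes the catalytically inactive antiviral protein ZAP and is itself inducible by interferon, had a log2FC of -0.14 (edgeR adjusted p = 0.438). *Parp4*, whose window carries the 2 ISREs printed above, had -0.12 (edgeR adjusted p = 0.605). The median of the 7 was -0.11, against -0.01 for all tested genes. *Parp6*, not called interferon-linked here, had -0.38 (SE 0.112, edgeR adjusted p = 0.212), below *Parp10* at -0.34 and *Parp12* at -0.32. *Zc3hav1* and *Parp6* were named after their values were seen.

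Around DTX3L, the other Deltex ligases were listed. Of *Dtx1* to *Dtx4*, 3 were tested and 0 were called at an edgeR adjusted p under 0.01 (1 at an unadjusted p under 0.05, beside 14.3% of all tested genes, and 0 by DESeq2). *Dtx4* had a log2FC of -0.51 (SE 0.107, edgeR adjusted p = 0.122) and *Dtx3* one of 0.14 (edgeR adjusted p = 0.691). *Dtx1* had 0 counts in all 4 libraries.

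Genes that remove or read ADP-ribose had log2FC of both signs, from -0.40 to 0.42. Of 14 tested, 0 were called at an edgeR adjusted p under 0.01 (1 at an unadjusted p under 0.05, beside 14.3% of all tested genes, and 0 by DESeq2), and their median log2 fold change was 0.05. The smallest p values belonged to *Adprhl2*, which encodes the serine ADP-ribose hydrolase ARH3, at -0.40 (edgeR adjusted p = 0.328), and *Rnf146*, a ligase that recognizes ADP-ribose chains, at 0.24 (edgeR adjusted p = 0.427).

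The list of base excision and single-strand break repair genes held 21 tested genes. None was called at an edgeR adjusted p under 0.01, 7 had an unadjusted p under 0.05 (14.3% of all tested genes), and DESeq2 called 0. The median log2 fold change was -0.15, and 15 of the 21 were negative, beside 51.5% of all tested genes. *Lig1*, a DNA ligase, had -0.32 (SE 0.0664, edgeR adjusted p = 0.121), and *Apex1*, the abasic-site endonuclease, had 0.33 (SE 0.0804, edgeR adjusted p = 0.154). The lowest value, -1.04 for *Fen1*, named after its values were seen, came with unloaded libraries far apart, at 55.4 and 114.6 CPM, above loaded libraries at 41.4 and 41.2 CPM.

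NAD+ is the substrate of every active PARP, and 19 genes of its supply and use were tested. None was called at an edgeR adjusted p under 0.01, 2 had an unadjusted p under 0.05 (14.3% of all tested genes), and DESeq2 called 1 lower (1.55% of the genes it tested). That gene was *Slc25a51*, the mitochondrial NAD+ carrier, with 1600 and 1991 counts in unloaded and 1169 and 1023 counts in loaded libraries. Its log2 fold change was -0.78 (SE 0.119, edgeR adjusted p = 0.0577). *Sirt2*, an NAD+-dependent deacetylase, had 0.44 (SE 0.146, edgeR adjusted p = 0.257). The median of the list was -0.06.

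For scale, 10 widely used interferon-stimulated genes, also listed with these data known, had a median log2 fold change of -1.65. Of these, 4 fell at an edgeR adjusted p under 0.01, namely *Ifit1*, *Ifit3*, *Rsad2* and *Oas2*, beside 0.0861% of all tested genes called lower. At 0.05, 9 fell, beside 0.565% of all tested genes, while DESeq2 called 10 lower at 0.01, beside 1.55% of the genes it tested. Without loaded replicate 1 or loaded replicate 2, 0 genes of any list were called at 0.01. *Stat2* and *Irf9*, whose products are parts of the factor that binds ISREs, had log2 fold changes of -0.81 and -0.79, between those of *Parp14* and *Parp11* and close to that of *Dtx3l*. The median of the 6 interferon-linked members was -0.54, that of the 3 repair members -0.12. In bulk libraries fewer cells that carry a transcript and less transcript per cell cannot be told apart.

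**Figure D5:**
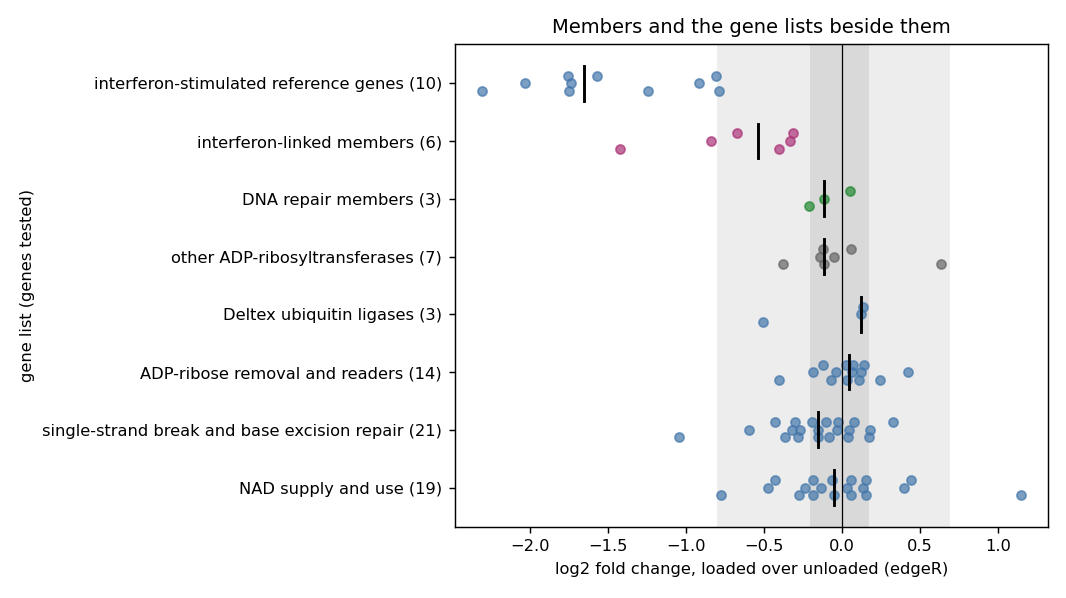
Each point is a tested gene, placed by its log2 fold change (loaded over unloaded) within its list, black lines are list medians, and grey bands hold the middle 50% and 90% of all tested genes. Interferon-linked members spread from -1.42 to -0.32 and overlap every other list except the DNA repair members, which run from -0.21 to 0.05. The interferon-linked median of -0.54 lies between that of the interferon-stimulated genes at -1.65 and those of the remaining lists.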

How the data were processed

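The members and gene lists were chosen with earlier results of these data known. The authors depleted ribosomal RNA, mapped trimmed and filtered reads to mm10 with HISAT2 2.1.0, assembled transcripts with StringTie 1.3.5 and derived gene counts from its output. Tool versions follow the paper and the submitters' processing notes. The authors deposited these counts without normalization. Annotation release and strandedness are not given in the sources used here. All 55450 identifiers were found in GENCODE M21 (GRCm38), which gave positions and merged exon lengths. The 27 names that were whole numbers were replaced by the GENCODE gene name of the same identifier.

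Genes were filtered (filterByExpr, minimum count 10), scaled by TMM and tested across all 16269 kept genes with edgeR 4.0.16 (glmQLFit, glmQLFTest, R 4.3.3) and Benjamini-Hochberg adjustment, on group alone. The standard error is the log2 fold change divided by the square root of F. Log2 CPM used a prior count of 2. DESeq2 1.42.0, limma-voom (limma 3.58.1), other scaling and filters, the replicate block and each left-out library were alternatives. TPM was computed from counts and exon lengths. Named genes are the members, list genes with an adjusted p under 0.05 (at most 4) or the 2 of smallest p, *Stat2*, *Irf9* and 5 nearest profiles. A gene that this rule also names is not reported here. Other genes (*Parp4*, *Parp6*, *Parp16*, *Zc3hav1*, *Fen1*, markers, overlapping genes and neighbours) were named after their values were seen. No column of samples was left unused. A planned protein comparison was not made, and proteins were not analysed here.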

Additional observations from a re-analysis of the deposited data

How the results depend on the processing

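Each member kept the sign of its log2 fold change under all 11 alternatives that gave one. With a library left out, *Parp14* ranged from -1.48 to -1.35, *Dtx3l* from -0.97 to -0.69, *Parp9* from -0.52 to -0.27 and *Parp1* from 0.02 to 0.08. The contrast of interferon-linked and repair genes ranged from -0.60 to -0.53 with a library left out and moved with its members, to -0.42 without *Parp14*, -0.34 without *Dtx3l* as well and -0.26 without *Parp11* as well, since fewer and less changed genes were averaged.

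Counts of called genes were less stable. In place of 2 higher and 14 lower genes, DESeq2 gave 170 and 193, a minimum of 10 counts in every library gave 4 and 25, and an adjusted p under 0.05 gave 55 and 92. No filter on low counts gave 0 and 0 (2435 genes at an unadjusted p under 0.05), as did the replicate block (1839 genes). Without one library, edgeR fits in which the lone replicate is assumed to vary like the other group gave 0 to 19 higher and 0 to 40 lower genes. The 0 arose without loaded replicate 1 (2225 genes at an unadjusted p under 0.05) and without loaded replicate 2 (2086 genes). The cause was not tested. The call of *Parp14* was lost with the block, without the filter, and without loaded replicate 1 or 2, and kept in the other fits. *Tiparp* had an edgeR adjusted p of 0.0949 with the block. In the lists, DESeq2 called 1 of the other family genes, 1 NAD gene and 10 interferon-stimulated genes, the block called 0 of the latter, and an adjusted p under 0.05 gave 1 family gene and 9 interferon-stimulated genes.

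Replicate numbers were not shown to pair the libraries: same-numbered libraries deviated from their group means with a correlation of -0.06 across 16269 genes, and the labels name no shared day or batch. The boxes of the ISRE 1 to 3 bases apart left *Parp11* as the 1 member with a match. This looser ISRE was found in 8.61% of all 32851 windows. With a minimum of 1 CPM, 4 of the 5 nearest profiles were the same genes.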
